A study of Mus musculus with 12 samples.

Results

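Potassium channels form a large family of ion channels that set the resting potential of sensory neurons, end each action potential and limit how often a neuron fires. Voltage-gated (Kv) channels assemble from pore subunits and open on depolarization, calcium- and sodium-activated channels open when those ions rise inside the cell, inwardly rectifying (Kir) and tandem-pore (K2P) channels carry current near rest, and the related HCN channels pass a mixed cation current on hyperpolarization that speeds the return to threshold. Cell bodies of the neurons that feel touch, position and pain sit in the dorsal root ganglia (DRG), where many of these genes are known for their part in excitability after nerve injury.

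The genes described here are those whose names start with Kcn or Hcn in the deposited count table, without the Kcnip genes, calcium-binding partners of Kv4 channels that were kept in a separate list of partners, and Kcnrg. The rule took 93 of the 44345 gene names. Of these, 80 passed the filter on low counts and were tested, and the other 13 (Kcna3, Kcna10, Kcnv2, Kcnh4, Kcne1, Kcne2, Kcnmb3, Kcnj1, Kcnj5, Kcnj6, Kcnk7, Kcnk9 and Kcnk15) had a mean of at most 0.262 FPKM (fragments per kilobase of transcript, scaled to library size) and at most 19 reads in a library. By family name the genes were sorted into 9 classes, which run from 4 HCN genes to 17 pore subunits of the Kv1 to Kv4 families.

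RNA was sequenced from the sciatic DRG of C57BL/6 mice aged 5 to 8 weeks, which were kept for 10 days in standard housing (SH) or an enriched environment (EE) and then received sciatic nerve axotomy (SNA) or sham surgery, with the ganglia taken 24 h later. The groups, written SH Sham and SH SNA in standard housing and EE Sham and EE + SNA in the enriched environment, numbered 4 with 3 samples each, and every sample pooled the ganglia of both sides of 2 mice. The study's text calls EE Sham an earlier described dataset, so the dataset cannot be told apart from the housing in EE Sham against SH Sham, or from the surgery in EE + SNA against EE Sham, and the interaction and the housing effect over both surgeries also use that group. No group carried a transgene, and the ganglia were used whole, so that neurons, glia, blood vessels and connective tissue all contributed RNA.

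Libraries held between 11343579 and 22871460 reads on genes. Atf3, a transcription factor induced in axotomized neurons, was at a mean of 119 CPM (read counts scaled to library size) in SH Sham and 516 CPM in SH SNA (log2 fold change 2.12, adjusted p = 7.38e-08), and at 147 CPM in EE Sham and 483 CPM in EE + SNA (log2 fold change 1.71, adjusted p = 4.24e-06). Gal, an injury-induced neuropeptide, was higher by 1.27 and by 0.88 on the log2 scale (adjusted p = 5.40e-05 and 0.00176). Here and below, log2 fold changes and adjusted p come from edgeR's quasi-likelihood test, with Benjamini-Hochberg adjustment over the 16238 genes tested, and a gene is said to have fallen or risen at an adjusted p under 0.05. 2 libraries stood apart in the channel genes: EE + SNA replicate 3 held the lowest of the 12 values in 31 of the 80 genes (38.8%, against 14.3% of all genes), and EE Sham replicate 1 held the highest in 29 (36.2%, against 15.1% of all genes).

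Promoter sequence is shown for 4 genes that the results below turn on: Kcnh7 and Kcns1, which fell after SNA in both housing conditions, Hcn2, the abundant HCN gene that fell in standard housing, and Kcnmb1, the gene with the smallest p between housing conditions. Each line gives the 250 bases before the start of the RefSeq transcript in the GRCm38.p6 build, 5′ to 3′ on the gene's own strand, with GC boxes (GGGCGG on either strand, the core site of Sp family factors) in capitals.
Kcnh7, chr2:63184288-63184537, minus strand: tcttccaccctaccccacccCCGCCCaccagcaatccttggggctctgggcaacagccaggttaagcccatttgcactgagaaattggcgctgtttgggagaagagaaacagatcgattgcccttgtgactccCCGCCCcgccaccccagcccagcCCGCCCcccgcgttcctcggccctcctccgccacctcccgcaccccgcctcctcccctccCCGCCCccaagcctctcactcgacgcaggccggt
Kcns1, chr2:164171114-164171363, minus strand: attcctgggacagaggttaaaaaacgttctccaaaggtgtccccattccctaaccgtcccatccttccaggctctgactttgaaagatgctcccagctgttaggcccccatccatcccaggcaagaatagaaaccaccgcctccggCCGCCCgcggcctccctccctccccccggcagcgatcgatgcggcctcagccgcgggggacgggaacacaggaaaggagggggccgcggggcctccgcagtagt
Hcn2, chr10:79716384-79716633, plus strand: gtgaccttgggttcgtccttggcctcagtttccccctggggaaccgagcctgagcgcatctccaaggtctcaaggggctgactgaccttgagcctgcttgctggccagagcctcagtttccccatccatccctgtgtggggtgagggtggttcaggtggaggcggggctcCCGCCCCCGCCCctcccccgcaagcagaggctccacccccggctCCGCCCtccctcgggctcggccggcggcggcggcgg
Kcnmb1, chr11:33962763-33963012, plus strand: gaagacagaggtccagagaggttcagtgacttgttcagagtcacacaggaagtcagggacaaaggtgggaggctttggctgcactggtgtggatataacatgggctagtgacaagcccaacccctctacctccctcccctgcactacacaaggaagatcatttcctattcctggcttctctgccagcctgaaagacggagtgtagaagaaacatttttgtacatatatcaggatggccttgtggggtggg

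The Kcnh7 window held 4 GC boxes, the Hcn2 window 3, the Kcns1 window 1 and the Kcnmb1 window 0. RefSeq promoters were matched for 66 of the 93 genes, 86 promoters in all, each running from 250 bases before to 50 bases after the start. A GC box stood in 50.0% of these and in 63.16% of the 19 promoters of genes that fell in SH SNA, while 35.66% of all 32851 promoters held one. The channel promoters were also richer in G and C, with a median of 58.2% against 52.7% over all promoters. The AP-1 motif (TGANTCA, either strand), which ATF3 and JUN recognize, stood in 2.33% of the channel promoters, in 0 of the 19 and in 7.81% of all promoters, and the CRE motif (TGACGTCA) in 0 of the 86 and in 1.79% of all. These counts describe letters in a fixed window and were not tested.

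Channel transcripts were lower after sciatic nerve axotomy. In SH SNA against SH Sham, 22 of the 80 genes fell (27.5%, against 5.17% of all genes tested) and 0 rose (against 6.06% of all genes), with 39 genes at an unadjusted p under 0.05, of which 32 were lower. By DESeq2 the counts were 23 lower and 0 higher, and edgeR's likelihood ratio test gave 23 lower and 1 higher (Kcna7). The median log2 fold change over the 80 genes was -0.21, beside 0.005 over all genes. Of 13 voltage-gated sodium channel genes 4 fell and 0 rose, with a median of -0.18. Of 22 voltage-gated calcium channel genes tested 3 fell and 1 rose, with a median of -0.10. Per length, the potassium and HCN channel genes that fell were the more abundant ones, with a median of 10.8 FPKM against 1.92 FPKM for the others tested. Of the 22 at 10 FPKM or more, 13 were among them. A call is easier to reach at higher counts, and 19 of the 80 genes were under 1 FPKM. These medians therefore do not show that abundant genes fell by more, which was not tested.

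The same direction was found in EE + SNA against EE Sham, a comparison that shares no sample with the first. There 10 genes fell (12.5%, against 2.33% of all genes) and 0 rose (against 2.51%), with 33 at an unadjusted p under 0.05, of which 32 were lower, and the median log2 fold change was -0.21, beside 0.004 over all genes. All 10 genes had also fallen in SH SNA, so that 12.5% of the channel genes fell in both comparisons, against 2% of all genes tested. They included Kcnc1, Kcnd1, Kcng1, Kcns1, Kcns3, Kcnh7, Kcnmb1, Kcnn1 and Kcnj3. With EE Sham replicate 1 and EE + SNA replicate 3 both left out, the same 10 genes fell and 0 rose, and the median over the channel genes was -0.13. DESeq2 gave 13 lower and 0 higher, and the likelihood ratio test 18 lower and 1 higher (Kcna7). Of the 13 sodium channel genes 3 fell and 0 rose here (median -0.27), and of the 22 calcium channel genes 1 fell and 0 rose (median -0.08).

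The calls depended in part on single libraries. In SH SNA 13 genes were called without SH Sham replicate 3 (12 lower and Kcnma1 higher), and in EE + SNA against EE Sham 5 were called without EE Sham replicate 3. Of the 22 and the 10 genes, 12 and 4 kept an adjusted p under 0.05 when each library was left out in turn. Kcnh7, Kcnj3 and Kcns1 did so in both comparisons. The 10 that lost the SH SNA call in at least 1 of 6 such fits included Kcna2, Kcnb2, Kcng4, Kcnh2, Kcnab2, Kcnn1, Kcnt1, Kcnj9 and Kcnk18. In EE + SNA, Kcnmb1 kept its call in 1 of 6 fits, Kcnn1 in 2, Kcnc1 in 4 and Kcnd1, Kcng1 and Kcns3 in 5.

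**Figure D1:**
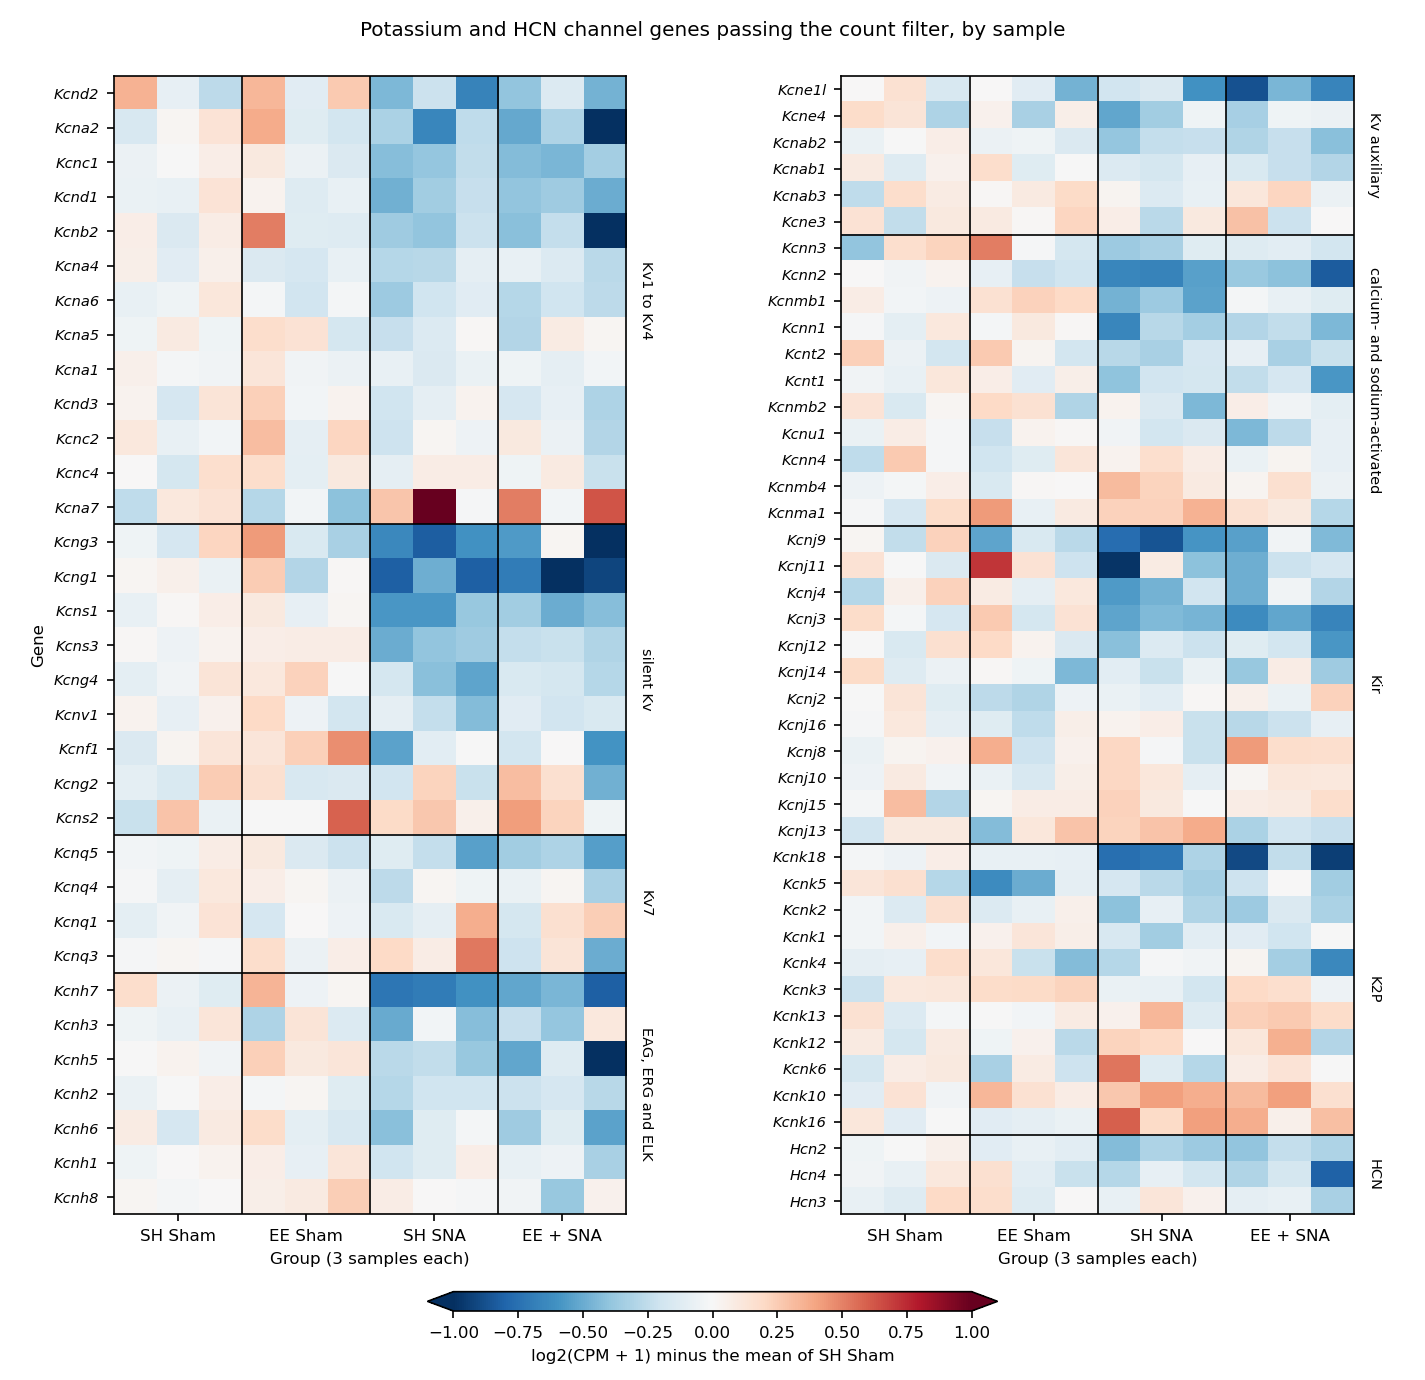
Each cell is 1 sample of 1 of 76 of the channel genes tested, coloured by log2(CPM + 1) minus the mean of the 3 SH Sham samples, with genes sorted within class by their change in SH SNA and the scale capped at 1 in both directions. Blue prevails in the 6 SNA columns of most classes, and the last column, EE + SNA replicate 3, is the lowest of the 12 in 31 of the 80 genes tested.

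The separation was also seen sample by sample. In standard housing, all 3 SNA values lay below all 3 sham values in 29 of the 80 genes and above them in 7, where 15.1% and 14.3% of all genes did so. In enriched housing the counts were 30 and 4 (12.3% and 13.4% of all genes). Both comparisons separated the groups downward in 24 channel genes (30.0%, against 7.29% of all genes). Summed over the 93 genes, the 6 sham samples held 3969 to 4415 CPM and the 6 SNA samples 3291 to 3654 CPM, ranges that did not overlap. The most abundant genes weigh most in such a sum. The voltage-gated sodium channel genes did not overlap either, at 2772 to 3254 CPM after sham surgery and 2330 to 2747 CPM after SNA. The calcium channel genes overlapped, at 1250 to 1483 CPM and 1246 to 1418 CPM.

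**Figure D2:**
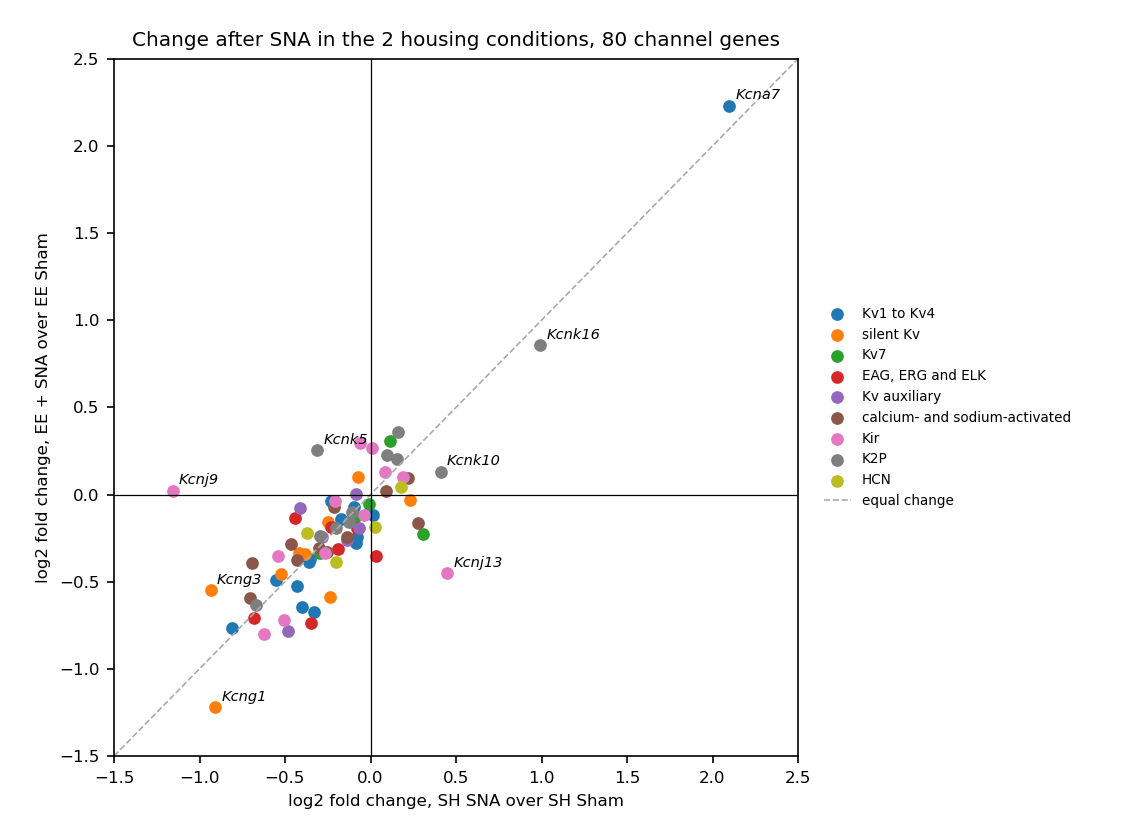
Each point is 1 of the 80 channel genes, placed by its log2 fold change in SH SNA over SH Sham (horizontal) and in EE + SNA over EE Sham (vertical), coloured by class, with the dashed line at equal change. 55 genes lie below 0 on both axes and 13 above 0 on both, and Kcna7, at the upper right, is a gene of at most 41 reads.

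Across the 80 genes the changes in both comparisons had a Pearson correlation of 0.811 and a Spearman correlation of 0.71, beside 0.642 and 0.626 over all 16238 genes. Without Kcna7, the most extreme point, the Pearson correlation was 0.689. Estimates were below 0 in both comparisons for 55 channel genes (68.8%, against 36.1% of all genes), above 0 in both for 13 and of opposite sign for 12. Genes are not independent of each other, and each comparison's 80 values share the same 6 libraries.

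Neuronal markers moved with the channels. Of 10 genes that mark sensory neurons, 3 fell in SH SNA (Isl1, Rbfox3 and Nefh) and 1 in EE + SNA against EE Sham (Isl1), with median log2 fold changes of -0.20 and -0.15. Their summed level was 11290 to 12390 CPM in the sham samples and 10670 to 11340 CPM in the SNA samples. For markers of other cells of the ganglion the medians were above 0: the 6 genes of myelinating Schwann cells had medians of 0.28 and 0.41, the 4 fibroblast genes 0.23 and 0.31, and the 5 satellite glia genes 0.14 and 0.07. EE + SNA replicate 3 held the highest summed level of the 12 samples for markers of myelinating Schwann cells (11470 CPM) and fibroblasts (775.9 CPM). The same held for macrophages (74.54 CPM) and neutrophils (569.6 CPM). Its neuronal sum of 11280 CPM was not the lowest, and its satellite glia sum of 2387 CPM was not the highest. The part of this mix in its channel values was not tested. In whole ganglia, fewer neurons in the sample and less RNA per neuron cannot be told apart. When each library was scaled on the reads of the 10 neuronal markers, a setting chosen after these values were seen, 15 channel genes were lower and 5 higher in SH SNA (among them Kcnk10, Kcnma1, Kcnmb4 and Kcnq3), in place of 22 and 0. This scaling raised all estimates by about 0.13, so that the median was -0.08, and the 22 genes remained below 0. In EE + SNA against EE Sham this scaling left 8 lower and 0 higher, with a median of -0.14, at a shift of 0.07. Under it, the class medians of Kv7, K2P and HCN in SH SNA turned from -0.01, -0.11 and -0.09 to 0.12, 0.02 and 0.04. The part of the neuronal share in the fall of any single channel gene was not tested.

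In the comparisons of SNA with sham surgery in the same housing, the fall was most frequent among the silent Kv subunits, the Kv1 to Kv4 subunits and the calcium- and sodium-activated channels, and the Kv7 genes held no call. That order is a description of the counts that follow and was not tested. Scaled on neuronal markers, silent Kv and Kv1 to Kv4 genes each gave 4 lower in SH SNA and 3 in EE + SNA against EE Sham. The calcium- and sodium-activated genes then gave 2 lower and 2 higher in SH SNA and 0 calls in EE + SNA, so their place did not hold. The Kir genes gave 2 and 1 lower, and 1 Kv7 gene was higher in SH SNA.

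Pore subunits of the Kv1 to Kv4 families numbered 17, of which 15 were tested. In SH SNA 6 fell and 0 rose, and in EE + SNA against EE Sham 3 fell and 0 rose, with class medians of -0.23 and -0.28. Kcnc1, a Kv3 subunit of the fast delayed rectifier that lets neurons repeat action potentials quickly, had a log2 fold change of -0.36 (adjusted p = 0.00368) in standard and -0.39 (adjusted p = 0.0126) in enriched housing. Its relatives Kcnc2 and Kcnc4 did not pass the test, with values of -0.08 and 0.02 in SH SNA. Kcnd1, a Kv4 subunit of the rapidly inactivating A-type current and at 31.0 FPKM the fourth most abundant channel gene, was at 180, 179 and 207 CPM in SH Sham and at 135, 148 and 160 CPM in SH SNA. In enriched housing the sham samples held 193, 172 and 179 CPM and the SNA samples 143, 147 and 133 CPM. The log2 change was -0.35 ± 0.074 (± gives the SE here and below, adjusted p = 0.00818) and -0.37 ± 0.069 (adjusted p = 0.0102), with no overlap between the groups in either housing. Kcnd3, the other Kv4 gene above 1 FPKM, gave -0.08 (adjusted p = 0.57) in SH SNA and -0.28 (adjusted p = 0.0843) in EE + SNA.

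Of the juxtaparanodal Kv1 subunits, which sit under the myelin beside the nodes of Ranvier, Kcna2 was called in SH SNA and Kcna1 was not. The difference between these genes was not tested. Kcna2 fell by 0.40 on the log2 scale in SH SNA (adjusted p = 0.0216) and measured -0.65 in EE + SNA, where the adjusted p was 0.0661. DESeq2 and the likelihood ratio test kept the SH SNA call. It was lost in the limma fits on FPKM (adjusted p = 0.0641 and 0.0603). It was also lost with all 12 samples in one edgeR fit (adjusted p = 0.158) and on neuronal scaling (adjusted p = 0.103). The 3 EE + SNA values of Kcna2 were 62.7, 72.3 and 40.9 CPM, the last in the library that stood apart. Kcna1 is the most abundant pore subunit of the family at 67.4 FPKM, and it did not pass the test: it held 647, 614 and 609 CPM in SH Sham, 592, 563 and 595 CPM in SH SNA, 678, 608 and 597 CPM in EE Sham and 605, 585 and 611 CPM in EE + SNA. The SNA values lay just below the sham values in standard housing and overlapped them in enriched housing. The log2 fold changes of Kcna1 were -0.10 (95% interval -0.22 to 0.03, adjusted p = 0.325) and -0.07 (95% interval -0.21 to 0.07, adjusted p = 0.578), and the first turned to 0.04 when libraries were scaled on neuronal markers. Kcna1 and Kcna6 lie 61.9 kb apart on chromosome 6, and Kcna6 measured -0.22 and -0.19 (adjusted p = 0.0653 and 0.143), with 39.6% of its exon bases under the antisense gene Gm26673. Kcna4, a Kv1 subunit of A-type current in small sensory neurons, did not pass the test, with values of -0.23 and -0.04 in the 2 housing conditions.

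Kcnb2, a Kv2 delayed rectifier, fell in SH SNA by 0.33 on the log2 scale (adjusted p = 0.0172). In EE + SNA its value was -0.67 with an adjusted p of 0.098, and EE + SNA replicate 3 was the lowest sample, at 24.3 CPM. Kcna7, at a mean of 0.19 FPKM, had the highest estimates of all 80 genes, 2.10 and 2.23 on the log2 scale, neither past the threshold (adjusted p = 0.124 and 0.134). Its level was 3.46 CPM in SH SNA replicate 2, the library in which 5 skeletal muscle genes summed to 816.5 CPM, where the sham samples ranged from 2.52 to 140 CPM. Kcna7 is known as a muscle subunit, and the part of muscle RNA in its value was not tested.

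Silent Kv subunits form no channel alone and change the gating of Kv2 channels when they join them. Of 10 such genes 9 were tested, and 5 fell in SH SNA (Kcng1, Kcng3, Kcng4, Kcns1 and Kcns3) and 3 in EE + SNA against EE Sham (Kcng1, Kcns1 and Kcns3), with 0 higher and class medians of -0.39 and -0.34. Kcns1, a subunit known from work on pain sensitivity, stood at 44.5, 47.4 and 49.1 CPM in SH Sham and at 31.0, 31.1 and 35.9 CPM in SH SNA. EE Sham held 50.4, 44.2 and 47.6 CPM and EE + SNA 36.7, 33.0 and 34.7 CPM. All 6 SNA values were below all 6 sham values, with log2 fold changes of -0.52 ± 0.079 (adjusted p = 0.00113) and -0.46 ± 0.075 (adjusted p = 0.00485).

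Kcns3, at 20.2 FPKM the most abundant silent subunit, held 69.1, 66.0 and 70.0 CPM in SH Sham, 48.2, 51.7 and 53.2 CPM in SH SNA, 71.6, 72.1 and 72.0 CPM in EE Sham and 57.9, 58.4 and 55.3 CPM in EE + SNA. Again the 6 SNA values were below the 6 sham values. The gene fell by 0.42 and by 0.34 on the log2 scale (adjusted p = 8.48e-04 and 0.00987). Kcng1 and Kcng3 showed larger estimates at low levels, Kcng1 with -0.91 and -1.22 (adjusted p = 0.00656 and 0.0111) at a mean of 0.769 FPKM, and Kcng3 with -0.94 and -0.55 (adjusted p = 0.01 and 0.404) at 0.926 FPKM. Kcng4 fell by 0.39 in SH SNA (adjusted p = 0.0459). Kcnv1, at 9.09 FPKM, measured -0.25 and -0.16 and did not pass the test.

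The EAG, ERG and ELK subfamily, slow Kv channels that shape the interval between action potentials, had 7 of its 8 genes tested, with 2 lower in SH SNA (Kcnh2 and Kcnh7), 1 in EE + SNA (Kcnh7) and 0 higher. Kcnh7, an ERG subunit, measured 222, 189 and 181 CPM in SH Sham and 119, 121 and 129 CPM in SH SNA. In enriched housing it measured 249, 190 and 199 CPM after sham surgery and 137, 143 and 111 CPM after SNA. The highest of the 6 SNA values, 143 CPM, lay below the lowest sham value, 181 CPM. Its log2 fold changes were -0.68 ± 0.075 (adjusted p = 1.13e-04) and -0.71 ± 0.11 (adjusted p = 0.0037), the latter the smallest adjusted p of any channel gene in that comparison, and its promoter is the one shown above with 4 GC boxes. Kcnh2, the ERG gene best known from the heart, fell by 0.23 in SH SNA (adjusted p = 0.0221) and measured -0.18 in EE + SNA (adjusted p = 0.151).

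The 5 Kv7 genes held no call in either comparison, with medians of -0.01 and -0.13. Kcnq3, a subunit of the M current that holds neurons below threshold, gave 0.31 (adjusted p = 0.151) in SH SNA, with all 3 SNA values above the sham values, and -0.23 (adjusted p = 0.472) in EE + SNA. In EE + SNA against SH Sham 1 Kv7 gene, Kcnq5, fell, by 0.41 on the log2 scale (adjusted p = 0.00891).

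Auxiliary subunits of Kv channels numbered 8, of which 6 were tested. Kcnab2, the cytoplasmic beta subunit that helps carry Kv1 channels into axons, was the most abundant of all 93 genes at 128 FPKM and the only one of this class to fall in SH SNA against SH Sham, with 0 in EE + SNA against EE Sham. In EE + SNA against SH Sham, Kcnab1 and Kcne1l fell beside it. It measured 770, 803 and 845 CPM in SH Sham and 616, 683 and 688 CPM in SH SNA, and 774, 782 and 728 CPM in EE Sham against 652, 685 and 604 CPM in EE + SNA. The groups did not overlap in either housing, and the change of -0.28 (adjusted p = 0.0128) passed the test in standard housing while that of -0.24 (adjusted p = 0.0621) in enriched housing did not.

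Calcium- and sodium-activated channels had 11 of 12 genes tested, with 4 lower in SH SNA (Kcnmb1, Kcnn1, Kcnn2 and Kcnt1), 2 in EE + SNA (Kcnmb1 and Kcnn1) and 0 higher. Kcnn1, a small-conductance calcium-activated channel, held 30.5, 28.6 and 33.2 CPM in SH Sham and 19.2, 25.2 and 24.0 CPM in SH SNA. It held 30.2, 32.9 and 31.0 CPM in EE Sham against 24.9, 25.7 and 22.2 CPM in EE + SNA. Its fall was 0.43 and 0.38 on the log2 scale (adjusted p = 0.0194 and 0.0308). Kcnn2, its close relative, fell by 0.69 in SH SNA (adjusted p = 0.00166) and measured -0.39 in EE + SNA (adjusted p = 0.174), or -0.25 without EE + SNA replicate 3 and -0.21 with EE Sham replicate 1 left out as well. Kcnt1, the sodium-activated channel, gave -0.26 (adjusted p = 0.0365) and -0.33 (adjusted p = 0.0873). The pore gene of the large-conductance BK channel, Kcnma1, had estimates unlike those of its subunit Kcnmb1, at 0.28 (adjusted p = 0.098) in SH SNA and -0.16 (adjusted p = 0.564) in EE + SNA, neither past the threshold. Kcnn4, the intermediate-conductance channel, gave 0.09 and 0.02.

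Among inward rectifiers, 12 of 15 genes were tested and 2 fell in SH SNA, Kcnj3 and Kcnj9, both of which code for subunits of channels opened by G protein-coupled receptors. Kcnj3 also fell in EE + SNA. It measured 27.9, 24.2 and 21.7 CPM in SH Sham, 16.7, 17.8 and 17.5 CPM in SH SNA, 29.6, 21.6 and 27.1 CPM in EE Sham and 15.5, 16.8 and 15.1 CPM in EE + SNA. All 6 SNA values lay below all 6 sham values, with log2 fold changes of -0.51 ± 0.10 (adjusted p = 0.00783) and -0.72 ± 0.12 (adjusted p = 0.00426). A noncoding gene on the other strand, Gm26794, covers 31.1% of the Kcnj3 exon bases, so a part of its reads is uncertain. Kcnj9 was low throughout, at 2.70, 2.08 and 3.28 CPM in SH Sham and 1.15, 1.01 and 1.43 CPM in SH SNA, and its estimate of -1.16 (adjusted p = 0.0113) stood beside 0.02 in EE + SNA. Kcnj10, the glial channel that buffers potassium around neurons and lies 11.9 kb from Kcnj9 on chromosome 1, gave 0.08 and 0.13 and overlapped in both comparisons.

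Of the 14 tandem-pore genes 11 were tested, and 1, Kcnk18, fell in SH SNA while 0 were called in EE + SNA. Kcnk18, a background channel of small sensory neurons, was at 7.92, 7.75 and 8.49 CPM in SH Sham and 4.36, 4.48 and 6.29 CPM in SH SNA (log2 fold change -0.67, adjusted p = 0.0138). In enriched housing the values were 7.58, 7.59 and 7.55 CPM after sham surgery and 3.83, 6.61 and 3.71 CPM after SNA (log2 fold change -0.63, adjusted p = 0.111). Kcnk1, the most abundant gene of the class at 35.0 FPKM, measured -0.20 and -0.19 (adjusted p = 0.0801 and 0.146), with groups that did not overlap in either housing. Kcnk2, a mechanosensitive channel, gave -0.29 and -0.24 (adjusted p = 0.175 and 0.294). Kcnk16 was the one channel gene whose SNA values lay above the sham values in both comparisons, at 0.359 to 0.587 CPM in SH Sham and 0.676 to 1.22 CPM in SH SNA, without passing the test (adjusted p = 0.129 and 0.278).

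The 4 HCN genes were all tested. In SH SNA 1 fell and 0 rose, and in EE + SNA against EE Sham 0 were called, with class medians of -0.09 and -0.20. Estimates in SH SNA were below 0 for 2 genes and above 0 for 2, and 1 gene had all SNA values above the sham values. In EE + SNA against EE Sham 3 were below 0 and 1 above. Hcn2, the most abundant of them at 25.3 FPKM and known from inflammatory and neuropathic pain, stood at 89.9, 92.2 and 95.7 CPM in SH Sham and 68.4, 74.6 and 71.7 CPM in SH SNA. It measured 85.4, 88.0 and 85.8 CPM in EE Sham and 70.2, 78.2 and 74.4 CPM in EE + SNA. The 6 SNA values were below the 6 sham values, and the log2 change of -0.37 ± 0.056 passed in standard housing (adjusted p = 0.00114), while -0.22 ± 0.066 did not in enriched housing (adjusted p = 0.0795).

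**Figure D3:**
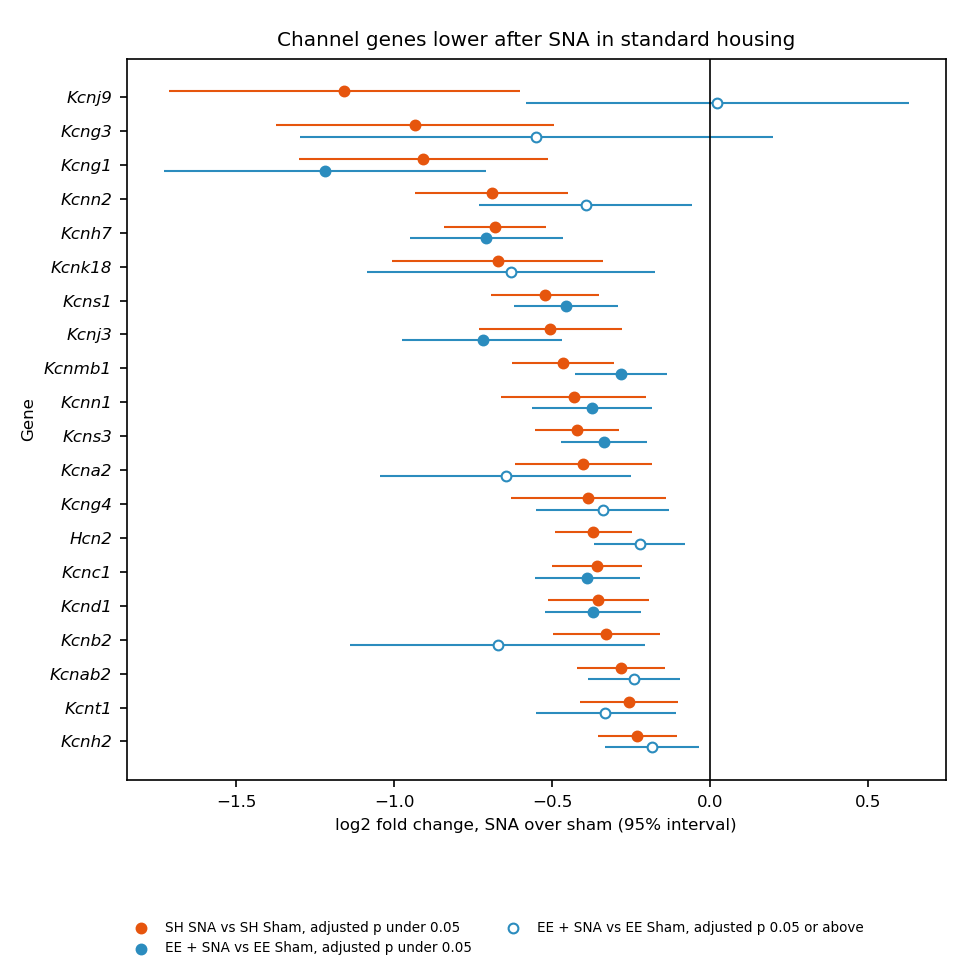
Points are log2 fold changes of SNA over sham for 20 of the channel genes that fell in standard housing, in SH SNA against SH Sham (orange) and in EE + SNA against EE Sham (blue), with bars for the 95% interval. Filled points have an adjusted p under 0.05, and 19 of the 20 blue points lie below 0, with Kcnj9 at 0.02 as the exception.

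Partners of these channels were examined as a separate list of 34 genes, of which 30 were tested. The list holds proteins that bind, cluster or anchor the channels, and also 6 genes of Kv7 regulation and 2 of Kv expression control. In SH SNA 10 fell and 1 rose (against 5.17% and 6.06% of all genes). In EE + SNA against EE Sham 7 fell and 1 rose (against 2.33% and 2.51%), and the medians were -0.14 and -0.16. The partners with the smallest p in SH SNA were Lgi3, a secreted ligand of the Kv1 complex (-0.53, adjusted p = 1.70e-04), Kcnip1, a calcium sensor that joins Kv4 channels (-0.53, adjusted p = 0.00126), Bdkrb2, a bradykinin receptor whose signal closes Kv7 channels (0.93, adjusted p = 0.00179), Dpp10, a Kv4 auxiliary protein (-0.38, adjusted p = 0.00266), and Cntnap2, which clusters Kv1 channels at the juxtaparanode (-0.30, adjusted p = 0.00286). Among the 6 Kv4 auxiliaries 4 fell in SH SNA and 3 in EE + SNA, and all 6 estimates were below 0 in both. Rest, a repressor of neuronal genes, measured 0.37 (adjusted p = 0.0764) in SH SNA and 0.009 (adjusted p = 0.979) in EE + SNA.

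In EE + SNA against SH Sham, 22 channel genes fell (against 5.63% of all genes) and 0 rose (against 6.87%), with a median of -0.23. Single libraries moved this number, to 11 with SH Sham replicate 3 left out, to 12 with EE + SNA replicate 1 left out and to 14 with SH Sham replicate 1 left out. This comparison uses the SH Sham samples of the first one, so the values are only set side by side. Kcnh7 measured -0.60 (adjusted p = 0.00203), Kcns1 -0.44 (adjusted p = 0.0016), Kcnj3 -0.64 (adjusted p = 0.00217) and Hcn2 -0.32 (adjusted p = 0.00626). Scaled on neuronal markers, at a shift of 0.14, the counts were 8 lower and 4 higher (among them Kcnj10, Kcnk10 and Kcnk13). Of the genes that fell in SH SNA, Kcnmb1 (-0.08, adjusted p = 0.499), Kcng3 (-0.54, adjusted p = 0.263), Kcng4 (-0.22, adjusted p = 0.152) and Kcnj9 (-0.42, adjusted p = 0.321) did not pass the test here.

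Between housing conditions, channel genes did not pass the adjusted threshold in edgeR's quasi-likelihood test. The counts were 0 in EE Sham against SH Sham, in EE + SNA against SH SNA, in the interaction of housing and surgery and in the housing effect over both surgeries, where 0.00616%, 0%, 0% and 0% of all genes did. DESeq2 and the likelihood ratio test also gave 0 in the first 3 of these and 1, Kcnmb1, in the last. At an unadjusted p under 0.05, the counts were 2 of 80 (against 2.97% of all genes), 6 (against 4.1%), 5 (against 2.61%) and 3 (against 4.69%). For the 22 channel genes at 10 FPKM or more, the 95% intervals of the housing effect lay between -0.33 and 0.40 on the log2 scale, with a median half-width of 0.11, and 21 of the 22 estimates were within 0.2 of 0. Over the 80 genes the median half-width was 0.21 for the housing effect, and the interaction was less precise, at 0.41. In simulated data its fit called 20 of 79 changes of 0.5 on the log2 scale, so 0 calls do not show equal changes after SNA.

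Kcnmb1, the beta subunit that raises the calcium sensitivity of BK channels and is best known from smooth muscle, had the smallest p of the housing effect. It measured 50.3, 46.8 and 45.9 CPM in SH Sham and 53.0, 56.2 and 54.8 CPM in EE Sham. After SNA it measured 34.0, 36.9 and 32.5 CPM in SH and 46.9, 45.3 and 43.6 CPM in EE. All EE values lay above all SH values within each surgery, with log2 differences of 0.20 between the sham groups and 0.39 between the SNA groups (unadjusted p = 0.0144 and 2.32e-04). The level fell after SNA in both housings, by 0.47 in standard (adjusted p = 0.00154) and 0.28 in enriched housing (adjusted p = 0.034). The housing effect over both surgeries was 0.29 ± 0.050 (SE), with an unadjusted p of 2.02e-05 and an adjusted p of 0.164, so that it did not pass over all genes in edgeR's quasi-likelihood test. Most other fits did not place it past the threshold either. Those that did were edgeR's likelihood ratio test (adjusted p = 0.00284), DESeq2 (0.00666) and the fit with no count filter (2.57e-04). The adjusted p was 0.478 and 0.487 in the limma fits, 0.284 with library size scaling, 0.233 with the replicate block and 0.112 on neuronal scaling. With each library left out in turn it ran from 0.0674 to 0.68, so no such fit passed. The range over all settings was 2.57e-04 to 0.68. The difference between the surgeries' housing effects was 0.19 with a 95% interval that included 0 (unadjusted p = 0.0531).

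2 measurements moved with Kcnmb1 or come from a gene whose span, introns included, holds it. Of 4 markers of pericytes and smooth muscle, Acta2 and Myh11 were higher in EE + SNA than in SH SNA by 0.70 and 0.52 (unadjusted p = 6.39e-04 and 0.00211, adjusted p = 0.989 for both), and the 4 genes' median housing effect was 0.24. Across SNA the same 4 markers had medians of 0.08 and 0.25, where Kcnmb1 fell. Kcnmb1 lies on the plus strand of chromosome 11, from 33963013 to 33973641 (mm10). It is inside the span of Kcnip1, which runs on the minus strand from 33629339 to 33993152. The exons of Kcnmb1 overlap those of no other annotated gene. Kcnip1 had a housing effect of 0.07 (unadjusted p = 0.161), and it fell after SNA, by 0.53 in standard (adjusted p = 0.00126) and 0.46 in enriched housing (adjusted p = 0.00289). The part of either in the Kcnmb1 values was not tested.

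**Figure D4:**
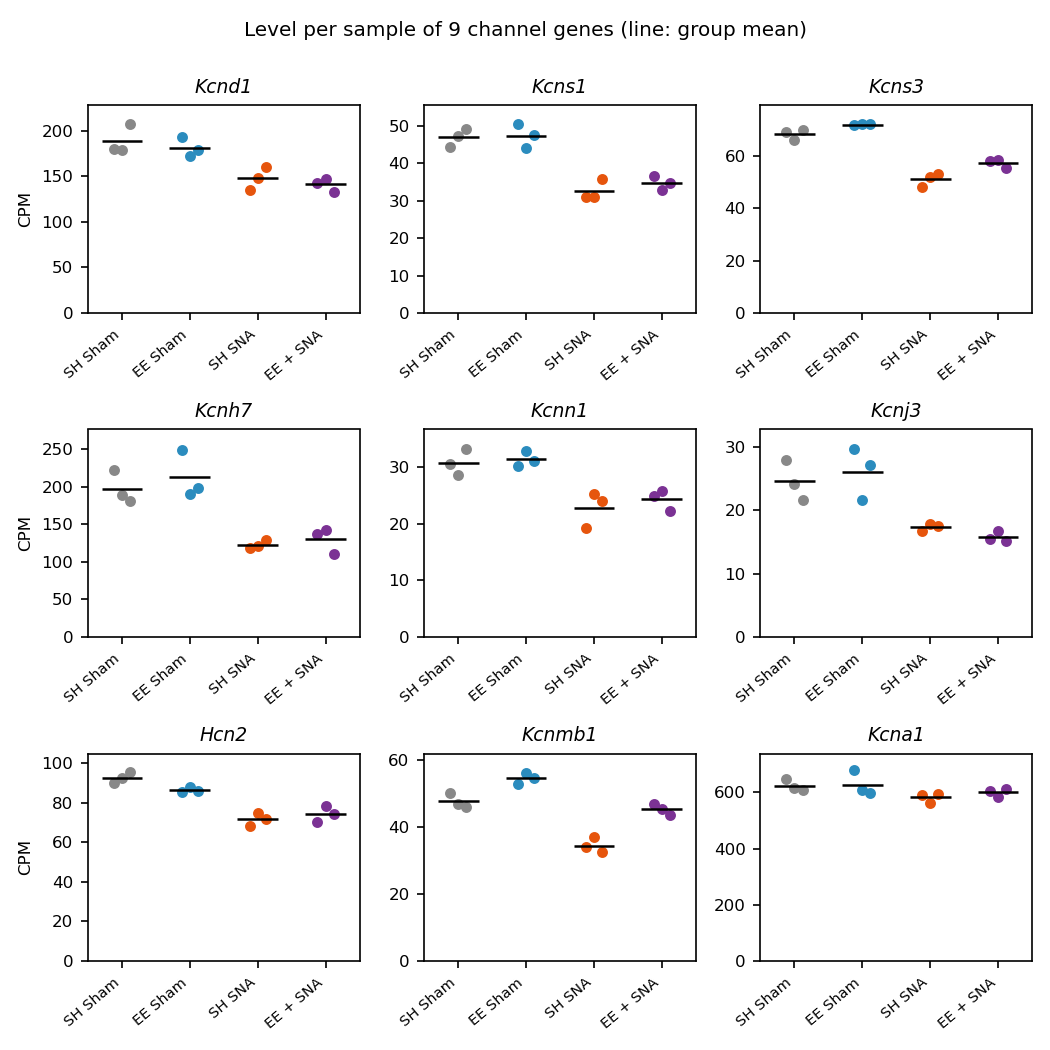
Dots are single samples in CPM, 3 for each group, and lines are group means, for 9 channel genes with axes that start at 0. In Kcns1, Kcnh7, Kcnj3 and Hcn2 the 6 SNA dots lie below the 6 sham dots, and Kcnmb1 is higher in EE than in SH within each surgery.

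The other members with a small unadjusted p between housing conditions were named by the smallest p in each comparison. Kcns3 and Kcnk3, the latter an acid-sensitive background channel, had housing effects of 0.12 (unadjusted p = 0.00921) and 0.22 (unadjusted p = 0.00944), each with an adjusted p of 0.984. In EE Sham against SH Sham, Kcnk5 was at -0.46 and Kcnf1 at 0.33 (unadjusted p = 0.0295 and 0.0522). Between the SNA groups, Kcnj13 was at 1.16 to 1.35 CPM in EE + SNA and 2.14 to 2.47 CPM in SH SNA (log2 difference -0.84, unadjusted p = 0.00372), but 49.1% of its exon bases lie under Gigyf2 on the other strand. Kcnq3 differed by -0.47 in that comparison (unadjusted p = 0.0226). The interaction was largest for Kcnj9 at 1.19 (unadjusted p = 0.00671), followed in p by Kcnq3 at -0.53 and Kcnj13 at -0.89 (unadjusted p = 0.0281 and 0.035), all with an adjusted p of 1.0.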

How the data were processed

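DRG RNA from 12 pooled samples (4 groups of 3) was sequenced as poly(A) libraries. Per the labels and the study's methods, the authors aligned reads to mm10 with TopHat 2.0.12 and Bowtie2 2.2.3 and counted them per gene with HTSeq (0.6.0 in the submitters' processing notes). The deposited files hold raw read counts per gene and FPKM values that the authors computed from them. The strand setting of the counting is not given in the sources used here. Rows for reads on no feature (46.7% to 47.6% of the reads in the count table) and the other summary rows were left out of library sizes and tests.

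The 93 genes, the classes and the lists of markers and partners were chosen with earlier results of these data known. Counts were tested with edgeR 4.0.16 (R 4.3.3): genes were kept by filterByExpr over the 4 groups (minimum count 10, minimum total 15), libraries scaled by TMM, and quasi-likelihood F tests run on the 6 samples of a comparison or on all 12 for the interaction and the housing effect, with Benjamini-Hochberg adjustment over 16238 genes. CPM were scaled by TMM, and FPKM served to compare levels between genes and in the limma alternatives. Kcnb2 has more than 1 line in the FPKM table, and the first was used. p-values measure the spread between pools of 2 mice. Precision is limited by 3 samples a group and, for genes under 1 FPKM, by counts.

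The text names the 10 genes with the smallest p in each direction in both SNA comparisons, 16 genes of known sensory function, the 5 most abundant genes, the 3 with the smallest p in each housing comparison and the 5 leading partners. Members named beyond these complete a class count or were chosen after their values were seen. A few members under this rule are not reported here by name, but the counts and medians include them. Alternatives were the likelihood ratio test, DESeq2 1.42.0, limma 3.58.1 on log2(FPKM + 1) and log2(FPKM + 0.1), library size scaling, other filters, a replicate block, all 12 samples in one fit, each sample left out in turn, scaling on neuronal markers and leaving out 2 libraries together, the last 2 chosen after seeing the data. Fits were tested on simulated data. Same-numbered samples of EE Sham and SH Sham had correlated deviations (0.331, 0.137 and 0.111 over genes). Samples of unlike number ran from -0.332 to 0.194, the highest being EE Sham replicate 2 with SH Sham replicate 3. The numbers are thus not shown to mark true pairs. The replicate block gave 0 calls at the adjusted threshold there, as without it. In the other comparisons at least 1 same-numbered pair was under 0.1. Positions and overlaps come from GENCODE M21 (mm10), with 92 of 93 genes matched by identifier, and promoters from RefSeq (GRCm38.p6).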

Additional observations from a re-analysis of the deposited data

How the results depend on the processing

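Of 1132 alternative values for the 67 results on named genes, 1056 kept direction and side of the threshold, 39 lost the call, 26 gained it and 11 changed sign, the last in genes without a call. Scaled on neuronal markers, the log2 changes that turned were 0.037 for Kcna1 and 0.048 for Kcnd3 in SH SNA, and 0.031 for Kcna4 in EE + SNA. With EE Sham replicate 1 and EE + SNA replicate 3 both left out, EE + SNA gave 0.007 for Kcna4, 0.108 for Kcnma1 and -0.026 for Kcnn4. With single libraries left out, Kcnn4 ranged from -0.048 to 0.242 in SH SNA, and in EE + SNA Kcna4 ranged from -0.079 to 0.019 and Kcnn4 from -0.053 to 0.125.

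Channel genes called in EE + SNA against EE Sham numbered 19 in the likelihood ratio test and 24 with no filter in place of 10, and those in EE + SNA against SH Sham 12 in place of 22 when scaled on neuronal markers. Leaving out each library in turn gave 13 to 24 calls in SH SNA against SH Sham, 5 to 12 in EE + SNA against EE Sham, 11 to 25 in EE + SNA against SH Sham and 0 in each of the 4 housing comparisons. In the same 3 SNA comparisons the replicate block gave 22, 14 and 15 calls. The same replicate numbers share no more than a number there. In the last of these the block ended 7 of the 22 calls. Between housing conditions, 1 gene (Kcnmb1) was called in the housing effect by the likelihood ratio test, by DESeq2 and with no filter, and 1 (Kcnmb1) in EE + SNA against SH SNA with no filter.

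At the unadjusted threshold, EE Sham against SH Sham gave 5 genes when scaled on neuronal markers, 3 with the replicate block and 1 to 4 over left-out libraries, in place of 2. EE + SNA against SH SNA gave 5 to 8 over left-out libraries, in place of 6. The interaction gave 3 in DESeq2 and in both limma fits, 8 with no filter and 1 to 7 over left-out libraries, in place of 5. The housing effect gave 6 with no filter, 5 in both limma fits, on neuronal scaling and with both libraries left out, and 3 to 6 over left-out libraries, in place of 3. The causes were not tested.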
